A study of Homo sapiens with 6 samples.

Results

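The 32 genes described here encode the enzymes and regulators of cholesterol and fatty acid synthesis. They were chosen by gene symbol from the 60605 genes of the deposited table, and all 32 were found. The list holds 5 SREBP regulators, 7 genes of the mevalonate pathway, 3 of squalene and lanosterol synthesis, 8 of the steps from lanosterol to cholesterol, 2 of sterol transport, 3 of fatty acid synthesis and 4 of desaturation and elongation. It is not a complete list of these pathways. RNA was sequenced in 6 libraries from MDA-MB-231, an established line of triple-negative breast cancer. The 3 shControl libraries came from cells with a control hairpin, and the 3 shPUS1 libraries came from cells with a hairpin against PUS1, a pseudouridine synthase that modifies uridines in RNA. According to the methods of the study, hairpins against PUS1 were delivered in a puromycin-resistant lentiviral vector, pLKO.1, and the cells were selected and kept in puromycin. The text of the study does not name the hairpin of the sequenced cells. All 3 shPUS1 libraries carry the same deposited label, knockdown-2, and which hairpin it stands for is not given. Whether the replicates of a group came from separate infections is not stated, so the p-values measure the spread between these libraries, which may be technical in part.

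Cholesterol and fatty acids are both built from acetyl-CoA. In the sterol branch, acetyl-CoA passes through mevalonate and farnesyl diphosphate to squalene, which is closed to lanosterol and then trimmed to cholesterol. The transcription factors SREBP-1 and SREBP-2, encoded by SREBF1 and SREBF2, switch on most genes of both branches: SCAP escorts them to the Golgi for cleavage when sterols are low, and INSIG1 and INSIG2 hold SCAP in the endoplasmic reticulum when sterols are high. SREBP-2 acts mainly on sterol genes, and SREBP-1c mainly on fatty acid genes.

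Promoter sequences from RefSeq (GRCh38.p14), reaching from 250 bases before to 50 bases after a transcription start, were given for 28 of the 32 genes in 38 windows. Parts of 4 windows are shown because SREBF1 and SC5D were the genes past the threshold in the comparison of all libraries, because SREBF2 was the only gene with the searched sterol regulatory element, and because INSIG1 is a regulator whose call depended on 1 control library. Positions are counted from the start site, and all sequences read 5′ to 3′ on the strand of the gene. Capitals mark the 4 motifs searched on both strands: the sterol regulatory element TCACNCCAC, the NF-Y box CCAAT, the E-box CACGTG and the GC box GGGCGG, which was added after the sequences had been seen. The INSIG1 stretch stops before the first exon listed by GENCODE 29, and for SC5D, whose window lies in an annotated exon, only 30 bases around the E-box are given.
SREBF1, chr17:17837017-17837236, minus strand, from -250 to -31: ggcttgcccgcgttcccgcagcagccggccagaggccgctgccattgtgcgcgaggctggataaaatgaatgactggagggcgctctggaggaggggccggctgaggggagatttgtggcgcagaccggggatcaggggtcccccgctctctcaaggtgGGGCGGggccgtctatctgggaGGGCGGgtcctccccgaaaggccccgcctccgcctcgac
SREBF2, chr22:41832855-41833074, plus strand, from -250 to -31: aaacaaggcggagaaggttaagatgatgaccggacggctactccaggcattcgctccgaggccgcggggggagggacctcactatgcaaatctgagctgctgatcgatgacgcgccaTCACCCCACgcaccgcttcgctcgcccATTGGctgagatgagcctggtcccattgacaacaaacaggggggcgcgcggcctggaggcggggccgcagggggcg
SC5D, chr11:121292628-121292657, plus strand, from -143 to -114: gcgcgcggcgccCACGTGaccgcggagagc
INSIG1, chr7:155297628-155297775, plus strand, from -250 to -103: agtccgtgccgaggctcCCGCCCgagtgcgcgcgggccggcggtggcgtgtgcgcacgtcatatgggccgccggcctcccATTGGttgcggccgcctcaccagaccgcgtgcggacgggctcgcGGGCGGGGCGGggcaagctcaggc
The sterol regulatory element was present in 1 of the 38 windows, that of SREBF2, starting at position -133, and in 1.13% of all 35116 windows in the table. Only exact matches to TCACNCCAC were counted, and other forms of the element were not searched. The NF-Y box was present in 24 of the 38 windows, belonging to 20 genes, and in 34.6% of all windows. The E-box was present in 5 windows, belonging to INSIG1, LSS, SC5D and SCAP, and in 7.26% of all windows. The GC box was present in 34 windows, belonging to 27 genes, and in 45.0% of all windows. The SREBF1 window held GC boxes and none of the other 3 motifs. GENCODE 29 lists 23 transcript starts of SREBF1, and promoters at starts further into the gene were not searched. These matches describe letters in the windows and were not tested for binding.

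The libraries held between 14241505 and 19625998 estimated counts, and each of the 32 genes had between 68 and 10573 estimated counts in a library. PUS1 was measured at 14.5, 27.5 and 12.1 CPM (counts scaled to a common library size with TMM factors) in shControl replicates 1, 2 and 3 and at 6.57, 5.47 and 5.37 CPM in the shPUS1 replicates. Its log2 fold change was -1.64 (SE 0.32, adjusted p = 0.0462, edgeR quasi-likelihood test), and without shControl replicate 2 it was -1.20 (adjusted p = 0.00311). That control library stood apart from the other 5: its correlations with them lay between 0.936 and 0.952, against 0.966 to 0.991 for all other pairs, and the values of the 32 genes are therefore given with it and without it. Of 5 mesenchymal markers, VIM lay between 286 and 498 FPKM (counts per exonic length and library size) and CD44 between 74.6 and 99.6 FPKM. Both were lower in every shPUS1 library than in every control. FN1 lay between 6.29 and 10.6, ZEB1 between 8.14 and 12.2 and SPARC between 0.51 and 2.23 FPKM, with overlapping groups. Of 7 epithelial or luminal markers, the keratins were also high, with KRT8 from 36.6 to 57.3, KRT18 from 63.8 to 74.0 and KRT19 from 51.1 to 98.6 FPKM. KRT8 and KRT19 were also lower in every shPUS1 library than in every control, and the groups of KRT18 overlapped. EPCAM lay from 2.21 to 3.12 and GATA3 from 1.55 to 2.16 FPKM, with overlapping groups. CDH1 lay from 0 to 0.18 and ESR1 from 0 to 0.04 FPKM, both near 0 and higher in every shPUS1 library than in every control. The part of these markers in the results was not tested. Of the markers of other cells, PTPRC lay at no more than 0.02 FPKM, PECAM1 from 0.18 to 0.46 FPKM and COL1A1 from 0.73 to 3.53 FPKM. COL1A1 was lowest in shControl replicate 2 and higher in every shPUS1 library than in every control. As the RNA is from bulk cultures, fewer cells of a type and less RNA per cell cannot be told apart.

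Among the 32 genes, SREBF1 fell and SC5D rose in shPUS1 cells, and the other 30 did not pass the threshold of an adjusted p under 0.05. The 1 gene that rose stands beside 1.74% of all 14748 genes tested that rose, and the 1 that fell beside 0.841% that fell, 2.58% together. A further 2 genes, PMVK and SQLE, had an unadjusted p under 0.05, which makes 4 of 32 (12.5%), against 25.5% of all genes tested. The log2 fold changes had a median of -0.02 over the 32 genes and -0.03 over all genes tested. Of the 32 genes, 15 had a positive and 17 a negative value, and 26 lay within 0.3 of 0. All shPUS1 libraries lay above all controls for HMGCS1, SQLE and SC5D and below them for SREBF1 and PMVK; over all genes tested, 18.8% were separated upward and 17.3% downward. No single gene of a design with 3 libraries against 3 can reach an exact permutation p below 0.1 (two-sided), which is the value of these 5 genes.

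Without shControl replicate 2, 7 of the 32 genes passed the threshold: SC5D and SQLE rose, and SREBF1, INSIG1, INSIG2, PMVK and SCD fell. In this comparison 9.80% of all 15130 genes tested rose and 8.79% fell, 18.6% together. An unadjusted p under 0.05 was found for 11 of the 32 genes (34.4%) and for 34.5% of all genes. The counts from DESeq2 were the same for the 5 libraries, 2 higher and 5 lower, beside 12.6% and 8.11% (20.7% together) of its 13557 genes. With all 6 libraries DESeq2 called SC5D higher and SREBF1 and PMVK lower, beside 7.37% and 5.64% (13.0% together) of its 13303 genes. The median over the 32 genes without that library was -0.08, against -0.02 over all genes tested. The groups were separated for 4 of the 32 genes with shPUS1 above and for 10 with shPUS1 below, and for 25.0% and 25.8% of all genes.

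**Figure D1:**
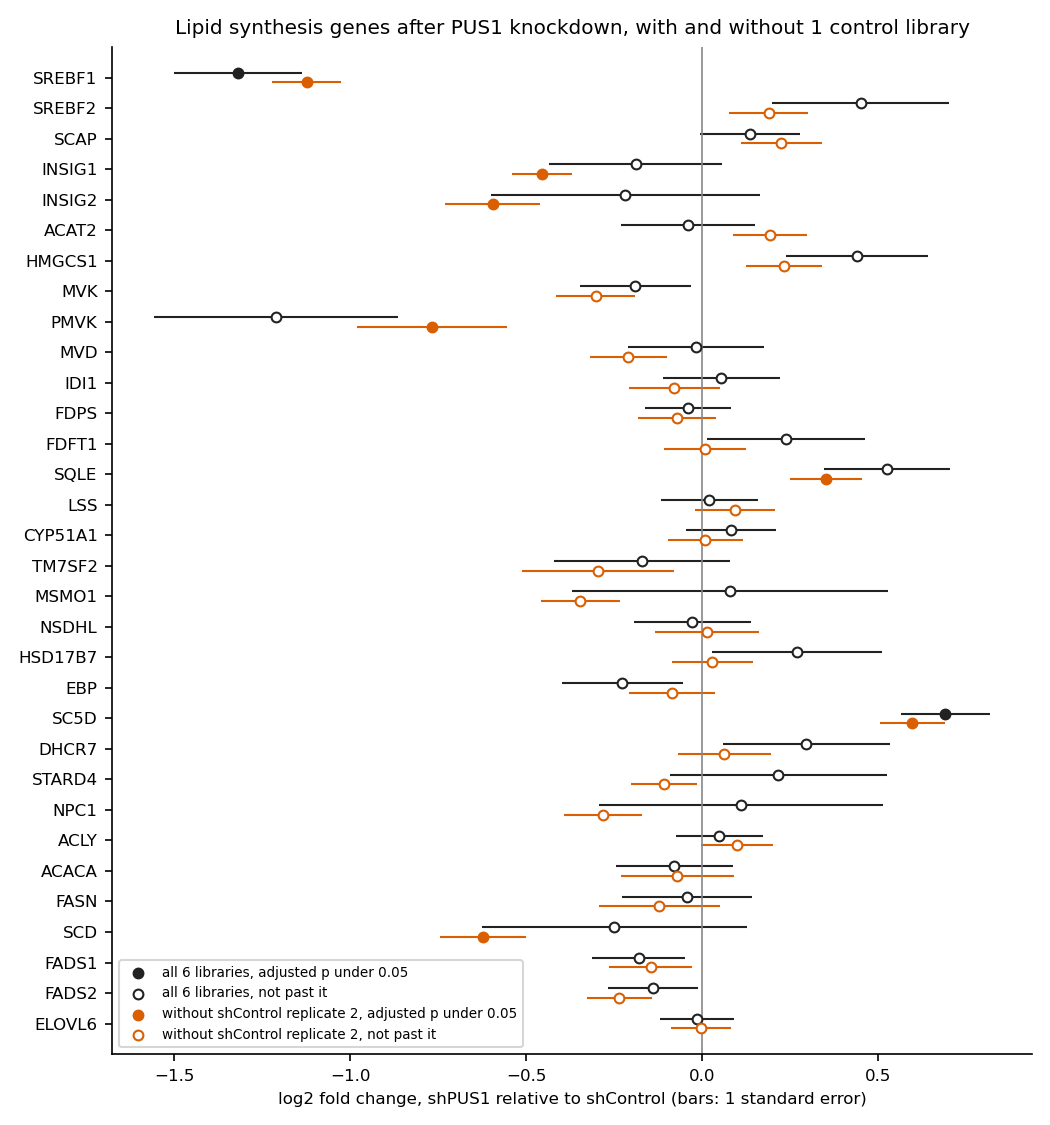
Log2 fold change of each of the 32 genes (horizontal axis; 1 gene per row, bars show 1 SE) from all 6 libraries (black) and without shControl replicate 2 (orange), with filled points for an adjusted p under 0.05. SREBF1 lies at -1.32 and -1.12 and SC5D at 0.69 and 0.60, while INSIG1, INSIG2, PMVK, SQLE and SCD are filled only in orange.

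Of the regulators, SREBF1 (chromosome 17, 17810399 to 17837002, minus strand) had 43.3, 65.6 and 47.6 CPM in the controls and 21.8, 21.3 and 19.7 CPM in shPUS1 cells. Every shPUS1 library was below every control, and the highest value was in shControl replicate 2. The gene fell 2.49-fold (log2 fold change -1.32, SE 0.18, adjusted p = 0.0248, edgeR), and 2.18-fold without that control (log2 fold change -1.12, SE 0.10, adjusted p = 6.05e-04). Its level was 6.35 ± 1.25 FPKM in controls and 2.52 ± 0.13 FPKM in shPUS1 cells (SD, n = 3), the lowest of the 5 regulators in both groups. The call was lost when shControl replicate 1 (adjusted p = 0.0681) or any of the shPUS1 replicates (adjusted p between 0.160 and 0.208) was left out in edgeR, while the log2 fold change stayed between -1.44 and -1.12. GENCODE 29 lists 23 transcripts of SREBF1, and counts per gene do not separate those of SREBP-1a from those of SREBP-1c. Its annotated span meets that of RAI1 on the other strand. Whether counting used strand is not given in the sources used here.

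SREBF2 had 198, 111 and 233 CPM in the controls and 258, 260.0 and 221 CPM in shPUS1 cells. The groups overlapped, and shControl replicate 2 was the lowest library. The log2 fold change of SREBF2 was 0.45 (SE 0.25, adjusted p = 0.294) with all libraries and 0.19 (SE 0.11, adjusted p = 0.269) without that control, so that neither value passed the threshold. Its level was 24.2 ± 8.96 FPKM in controls and 32.3 ± 2.91 FPKM in shPUS1 cells. SCAP, the escort protein, lay between 66.3 and 91.3 CPM with overlapping groups (log2 fold change 0.14, SE 0.14, adjusted p = 0.566, and 0.23, SE 0.12, adjusted p = 0.202 without that control).

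INSIG1 had 186, 92.6 and 179 CPM in the controls and 131, 137 and 133 CPM in shPUS1 cells. The 3 shPUS1 libraries lay between shControl replicate 2 and the other controls. With all libraries the log2 fold change of INSIG1 was -0.19 (SE 0.25, adjusted p = 0.655), and without shControl replicate 2 it fell by 0.46 on the log2 scale (SE 0.09, adjusted p = 0.0102). INSIG2 showed the same order, with 114, 32.5 and 84.6 CPM in the controls and 64.6, 71.3 and 62.3 CPM in shPUS1 cells. Its log2 fold change was -0.22 (SE 0.38, adjusted p = 0.744), or a fall of 0.60 (log2 fold change -0.60, SE 0.14, adjusted p = 0.0206) without that control. At 39.3 FPKM over all libraries, INSIG1 had the highest level of the regulators, followed by SREBF2 at 28.3 and INSIG2 at 18.2 FPKM.

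**Figure D2:**
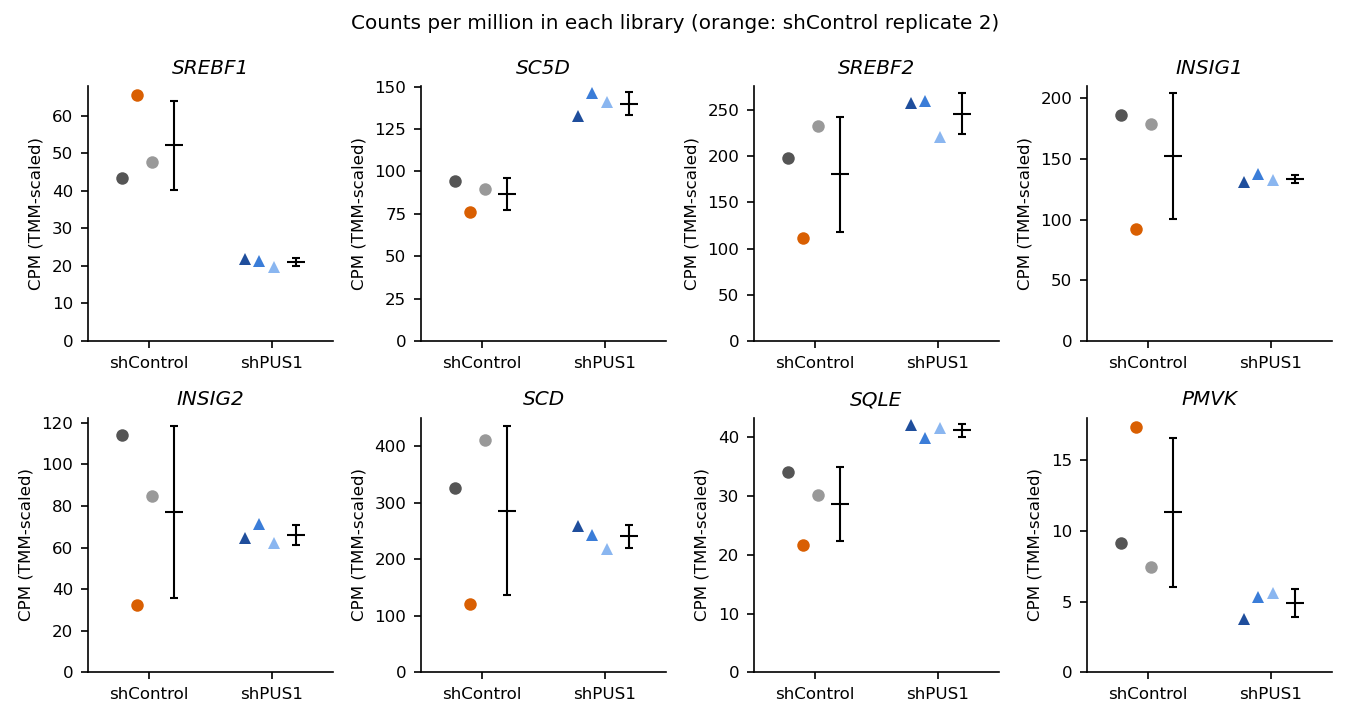
CPM (TMM-scaled, linear axes from 0) of 8 genes in each shControl library (circles) and shPUS1 library (triangles), with mean and SD at the right of each group. SREBF1 and SC5D are separated between groups, whereas for INSIG1, INSIG2 and SCD the shPUS1 libraries lie between shControl replicate 2 (orange) and the other 2 controls.

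None of the 7 mevalonate pathway genes passed the threshold with all 6 libraries by edgeR, 1 had an unadjusted p under 0.05, and DESeq2 called that gene, PMVK, lower. PMVK, which phosphorylates phosphomevalonate, had 9.16, 17.4 and 7.43 CPM in the controls and 3.78, 5.31 and 5.61 CPM in shPUS1 cells. All shPUS1 libraries were below all controls, and shControl replicate 2 was about double the other controls (209% of their mean). The log2 fold change of PMVK was -1.21 (SE 0.35, adjusted p = 0.0922) in edgeR and -1.21 (adjusted p = 0.0144) in DESeq2, and without shControl replicate 2 it fell by 0.77 (SE 0.21, adjusted p = 0.0386, edgeR). It rested on as few as 68 estimated counts in a library. HMGCS1, which makes HMG-CoA, had 105, 59.3 and 87.6 CPM in the controls and 114, 111 and 117 CPM in shPUS1 cells. The groups of HMGCS1 did not overlap, but its log2 fold change of 0.44 (SE 0.20, adjusted p = 0.217) did not pass the threshold, nor did the 0.23 (SE 0.11, adjusted p = 0.161) without shControl replicate 2.

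FDPS, the farnesyl diphosphate synthase, had the highest level of this pathway at 42.1 FPKM. It had 179, 153 and 144 CPM in the controls and 156, 154 and 153 CPM in shPUS1 cells, with overlapping groups (log2 fold change -0.04, SE 0.12, adjusted p = 0.858, and -0.07 without shControl replicate 2). The thiolase ACAT2 (-0.04, SE 0.19, adjusted p = 0.909), the mevalonate kinase MVK (-0.19, SE 0.16, adjusted p = 0.468), the decarboxylase MVD (-0.02, SE 0.19, adjusted p = 0.962) and the isomerase IDI1 (0.05, SE 0.17, adjusted p = 0.860) had overlapping groups and log2 fold changes within 0.3 of 0. The values without shControl replicate 2 were 0.19 for ACAT2 (adjusted p = 0.228), -0.30 for MVK (adjusted p = 0.0940), -0.21 for MVD (adjusted p = 0.208) and -0.08 for IDI1 (adjusted p = 0.696), so that the signs of ACAT2 and IDI1 turned and no call was made. The groups of ACAT2 and MVK were then separated. Levels of these 4 genes over all libraries ranged from 3.44 FPKM for MVK to 28.0 FPKM for ACAT2. Summed over the 7 genes, the level was 135 ± 13.0 FPKM in controls and 129 ± 3.57 FPKM in shPUS1 cells (SD, n = 3).

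Squalene epoxidase, SQLE, which oxidizes squalene before ring closure, had 34.1, 21.7 and 30.2 CPM in the controls and 42.1, 40.0 and 41.6 CPM in shPUS1 cells. The groups were separated. With all libraries the log2 fold change of SQLE was 0.52 (SE 0.18, adjusted p = 0.129), and without shControl replicate 2, its lowest library, SQLE rose 1.28-fold (log2 fold change 0.35, SE 0.10, adjusted p = 0.0451). The squalene synthase FDFT1, the highest of the 3 genes at 41.4 FPKM, had 255, 132 and 205 CPM in the controls and 235, 216 and 246 CPM in shPUS1 cells. Its groups overlapped, and its log2 fold change of 0.24 (SE 0.22, adjusted p = 0.527) became 0.01 (SE 0.12, adjusted p = 0.972) without that control. The lanosterol synthase LSS lay between 67.2 and 85.8 CPM (log2 fold change 0.02, SE 0.14, adjusted p = 0.938, and 0.09 without that control).

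In the steps from lanosterol to cholesterol, SC5D (chromosome 11, 121292681 to 121313410, plus strand) was the 1 gene of 8 past the threshold. SC5D introduces the ring double bond that turns lathosterol into 7-dehydrocholesterol. It had 94.4, 76.0 and 89.8 CPM in the controls and 133, 146 and 141 CPM in shPUS1 cells. All shPUS1 libraries were above all controls, and the spread within each group was small. SC5D rose 1.61-fold (log2 fold change 0.69, SE 0.13, adjusted p = 0.0420, edgeR), and 1.51-fold without shControl replicate 2 (log2 fold change 0.60, SE 0.09, adjusted p = 0.00527). Its level was 11.3 FPKM over all libraries, the fifth of the 8 genes. The call of SC5D was lost when any library other than shControl replicate 2 was left out in edgeR (adjusted p between 0.0524 and 0.249), with the log2 fold change between 0.60 and 0.76.

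MSMO1, which removes methyl groups from the sterol ring, had the highest level of these 8 genes at 35.8 FPKM. It had 146, 32.7 and 118 CPM in the controls and 105, 110 and 98.9 CPM in shPUS1 cells. shControl replicate 2 was at 24.8% of the mean of the other controls, and the shPUS1 libraries lay between. The log2 fold change of MSMO1 was 0.08 (SE 0.45, adjusted p = 0.923) with all libraries and -0.35 (SE 0.11, adjusted p = 0.0660) without that control. The groups of MSMO1 were then separated, with shPUS1 below, at an unadjusted p of 0.0145 (edgeR). DHCR7, which reduces 7-dehydrocholesterol to cholesterol and so acts right after SC5D, lay between 51.2 and 107 CPM with overlapping groups (log2 fold change 0.30, SE 0.24, adjusted p = 0.450, and 0.06 without shControl replicate 2). The other 5 genes of these steps also had overlapping groups: the demethylase CYP51A1 (log2 fold change 0.08, SE 0.13, adjusted p = 0.715), the reductase TM7SF2 (-0.17, SE 0.25, adjusted p = 0.691), NSDHL (-0.03, SE 0.17, adjusted p = 0.927), HSD17B7 (0.27, SE 0.24, adjusted p = 0.506) and the isomerase EBP (-0.23, SE 0.17, adjusted p = 0.428). The values of these 5 genes without shControl replicate 2 were 0.01, -0.30, 0.01, 0.03 and -0.09 in the same order, with adjusted p between 0.364 and 0.962. The groups of TM7SF2 were then separated, with shPUS1 below. CYP51A1 shares 76.8% of its 100-base transcript stretches with other annotated genes, AC000120.2 and pseudogenes among them, so its counts are uncertain. TM7SF2 is the lowest of all 32 genes, at 1.75 FPKM, and lies over VPS51 on the same strand.

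The sterol transport genes did not pass the threshold by edgeR in either comparison, and no member had an unadjusted p under 0.05 with all 6 libraries in edgeR or DESeq2. NPC1, which carries cholesterol out of lysosomes, had 584, 193 and 720 CPM in the controls and 575, 544 and 497 CPM in shPUS1 cells. shControl replicate 2 was at 29.5% of the mean of the other controls. The log2 fold change of NPC1 changed sign with that library, from 0.11 (SE 0.40, adjusted p = 0.880) to -0.28 (SE 0.11, adjusted p = 0.116) without it. The groups of NPC1 were then separated, with shPUS1 below, at an unadjusted p of 0.035 (edgeR). STARD4, a soluble sterol carrier, had 145, 58.3 and 140 CPM in the controls and 128, 143 and 128 CPM in shPUS1 cells. Its log2 fold change was 0.22 (SE 0.31, adjusted p = 0.686) with and -0.11 (SE 0.09, adjusted p = 0.442) without that control.

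None of the 3 fatty acid synthesis genes passed the threshold with all 6 libraries, and 0 had an unadjusted p under 0.05 in edgeR or DESeq2; their log2 fold changes lay between -0.08 and 0.05. ACLY, which makes cytosolic acetyl-CoA from citrate, had the highest level of all 32 genes at 74.5 FPKM, with 347, 412 and 388 CPM in the controls and 418, 410 and 358 CPM in shPUS1 cells. Its log2 fold change was 0.05 (SE 0.12, adjusted p = 0.831). The acetyl-CoA carboxylase ACACA lay between 87.8 and 127 CPM (log2 fold change -0.08, SE 0.17, adjusted p = 0.784). The fatty acid synthase FASN lay between 245 and 371 CPM (-0.04, SE 0.18, adjusted p = 0.898). Without shControl replicate 2 the values of ACLY, ACACA and FASN were 0.10, -0.07 and -0.12, none past the threshold. shControl replicate 2 was within the range of the other libraries for all 3 genes.

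SCD, which introduces a double bond into stearoyl-CoA, had 326, 121 and 412 CPM in the controls and 260, 244 and 218 CPM in shPUS1 cells. As with INSIG1, the shPUS1 libraries lay between shControl replicate 2 and the other controls. The log2 fold change of SCD was -0.25 (SE 0.38, adjusted p = 0.702) with all libraries, and without that control SCD fell 1.54-fold (log2 fold change -0.62, SE 0.12, adjusted p = 0.0117). At 50.5 FPKM over all libraries it had the highest level of the 4 desaturation and elongation genes. The elongase ELOVL6 varied least of the 4, between 112 and 119 CPM (log2 fold change -0.01, SE 0.10, adjusted p = 0.944, and -0.003 without shControl replicate 2). The desaturases FADS1 (-0.18, SE 0.13, adjusted p = 0.416) and FADS2 (-0.14, SE 0.13, adjusted p = 0.512) had overlapping groups, and their annotated spans overlap on opposite strands. The span of FADS2 also overlaps that of FEN1 on the same strand. The values without shControl replicate 2 were -0.15 for FADS1 (adjusted p = 0.409) and -0.24 for FADS2 (adjusted p = 0.110), with the groups of FADS2 then separated.

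**Figure D3:**
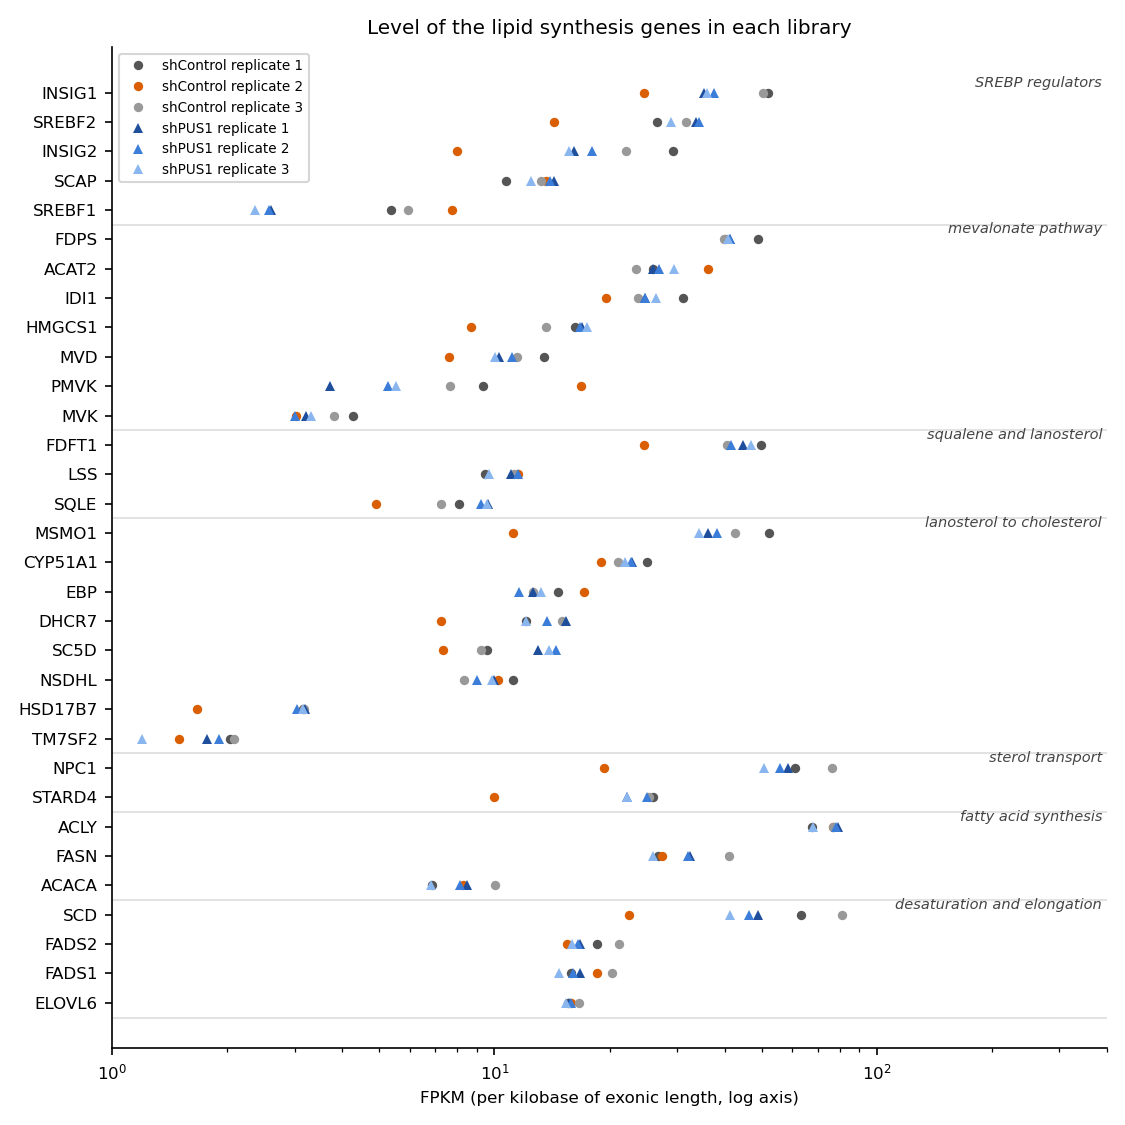
FPKM of the 32 genes in each library (horizontal axis, log scale), grouped by role and ordered by mean level, with circles for shControl and triangles for shPUS1. Mean levels run from 1.75 FPKM for TM7SF2 to 74.5 FPKM for ACLY, and shControl replicate 2 (orange) lies to the left of the other libraries for NPC1, MSMO1, SCD, STARD4 and INSIG2.

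The control group itself varied widely for part of these genes. shControl replicate 2 was below the other 5 libraries for 17 of the 32 genes and above them for 6, against 32% below and 34.4% above over all genes tested. The median of its log2 difference from the mean of the other controls was -0.30 over the 32 genes and 0.02 over all genes tested. The genes with the largest negative differences were MSMO1 (-1.99), NPC1 (-1.75), SCD (-1.59), INSIG2 (-1.58) and STARD4 (-1.28). INSIG1 (-0.97) and SREBF2 (-0.94) followed. The genes above the other libraries were PMVK (1.03), ACAT2 (0.62), SREBF1 (0.53), EBP (0.40), LSS (0.23) and ELOVL6 (0.05). By role, all of the sterol transport genes, 5 of the 8 genes from lanosterol to cholesterol and none of the fatty acid synthesis genes were lowest there. PUS1 was also highest in this library, at 207% of the mean of the other controls. The part of this library's state in the results above was not tested; SREBF1 and SC5D passed the threshold without it.

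**Figure D4:**
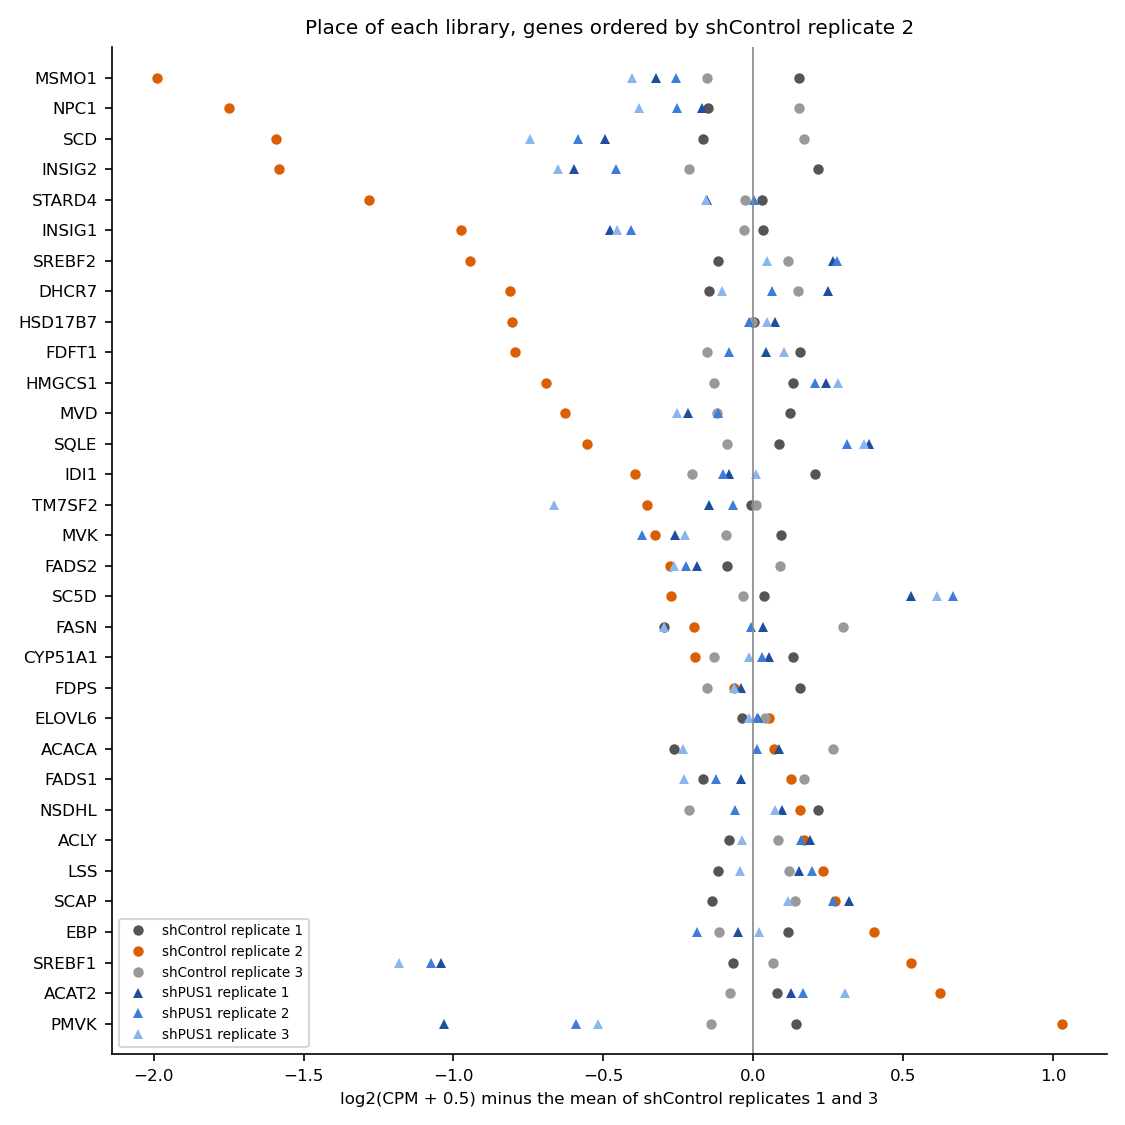
Difference of each library from the mean of shControl replicates 1 and 3 on the log2(CPM + 0.5) scale (horizontal axis) for the 32 genes, ordered by shControl replicate 2 (orange). That library spans -1.99 for MSMO1 to 1.03 for PMVK, and the shPUS1 libraries (triangles) lie left of all controls for SREBF1 and PMVK.

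The shPUS1 libraries were closer to each other than the controls. The coefficient of variation of CPM had a median of 6.44% over the 32 genes in shPUS1 cells and 22.4% in controls, and the medians over all genes tested were 8.42% and 22.1%.

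A wider set of 73 lipid genes in 6 lists, all of them tested, held 1 gene that rose and 1 that fell with all 6 libraries, and its median log2 fold change was -0.01. An unadjusted p under 0.05 was found for 22 of them (30.1%), against 25.5% of all genes tested. Without shControl replicate 2, 7 of these genes rose (9.59%, against 9.80% of all genes) and 13 fell (17.8%, against 8.79% of all genes). Of 13 genes of sterol uptake, storage and efflux, ABCA1, which exports cholesterol from cells, fell from 21.3, 21.2 and 30.7 CPM in the controls to 11.6, 12.3 and 9.80 CPM in shPUS1 cells (log2 fold change -1.12, SE 0.20, adjusted p = 0.0418). Its groups were separated, and the value without shControl replicate 2 was -1.21 (adjusted p = 0.00399). The call of ABCA1 was lost with replicate number as a block in edgeR (adjusted p = 0.119). The lysosomal acid lipase LIPA (-0.49, adjusted p = 0.0688) and the HDL receptor SCARB1 (-0.49, adjusted p = 0.104) did not pass the threshold with all libraries in edgeR, and DESeq2 called LIPA (adjusted p = 0.0177). Both fell without shControl replicate 2, LIPA by 0.56 (log2 fold change -0.56, adjusted p = 0.00922) and SCARB1 by 0.41 (adjusted p = 0.0453). In that comparison 1 of the 13 genes rose in edgeR (7.69%), SOAT1 (0.62, adjusted p = 0.00656). Another 4 fell (30.8%), ABCA1, LIPA, SCARB1 and NR1H3 (-0.54, adjusted p = 0.0319). DESeq2 on the same 5 libraries called 2 of the 13 higher and 2 lower, beside 12.6% and 8.11% of all its genes. It did not call SCARB1 (adjusted p = 0.0548) or NR1H3 (adjusted p = 0.0812). The annotated span of LIPA overlaps those of IFIT1, IFIT2 and IFIT3 on the other strand.

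Of 19 genes that supply acetyl-CoA and activate or elongate fatty acids, ME1, a malic enzyme that yields NADPH, rose from 40.2, 34.1 and 34.6 CPM to 77.5, 81.4 and 74.6 CPM. The groups were far apart (log2 fold change 1.10, SE 0.13, adjusted p = 0.0182), also without shControl replicate 2 (1.05, adjusted p = 0.00113). The call of ME1 was lost with replicate number as a block in edgeR (adjusted p = 0.0735). Without shPUS1 replicate 3, edgeR called 0 genes in all, so neither ME1 nor ABCA1 passed there. The elongase ELOVL7 had 25.2, 12.6 and 25.3 CPM in the controls and 49.5, 50.5 and 46.2 CPM in shPUS1 cells, with no overlap. Its log2 fold change of 1.22 (SE 0.26, adjusted p = 0.0522) did not pass the threshold in edgeR and did in DESeq2 (adjusted p = 3.52e-04). Without shControl replicate 2, its lowest library, ELOVL7 rose by 0.94 on the log2 scale (adjusted p = 0.00113, edgeR). For the citrate carrier SLC25A1 the log2 value was -0.42 (SE 0.12, adjusted p = 0.0843), and without that control it fell by 0.41 (adjusted p = 0.0227). In the smaller comparison 3 of the 19 genes rose (15.8%) and 2 fell (10.5%), beside 9.80% and 8.79% of all genes. The genes not yet named were HACD1, which rose (0.39, adjusted p = 0.0441, edgeR), and ACSL1, which fell (-0.33, adjusted p = 0.0455).

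None of the 14 genes of sterol sensing and SREBP processing passed the threshold with all libraries in edgeR, 4 had an unadjusted p under 0.05 (28.6%, against 25.5% of all genes), and DESeq2 called 1 higher and 2 lower, beside 7.37% and 5.64% of all its genes. With 5 libraries, leaving out shControl replicate 2, edgeR called 1 of the 14 higher (7.14%) and 3 lower (21.4%), beside 9.80% and 8.79% of all genes: PAQR3 rose (0.52, adjusted p = 0.00737), and ERLIN2 (-0.59, adjusted p = 0.00992), ERLIN1 (-0.40, adjusted p = 0.0169) and MBTPS2, a protease that cleaves SREBPs (-0.48, adjusted p = 0.0308), fell. With all libraries the 3 with the smallest p were ERLIN2 (log2 fold change -0.66, adjusted p = 0.0519) and ERLIN1 (-0.59, adjusted p = 0.0900), which bind INSIG and SREBP complexes in the endoplasmic reticulum, and PAQR3 (0.51, adjusted p = 0.0519), which holds SCAP at the Golgi. PAQR3 had 62.0, 65.0 and 63.7 CPM in the controls and 89.6, 90.5 and 90.5 CPM in shPUS1 cells, a separation larger than the spread in either group. Its span overlaps that of BMP2K on the other strand.

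**Figure D5:**
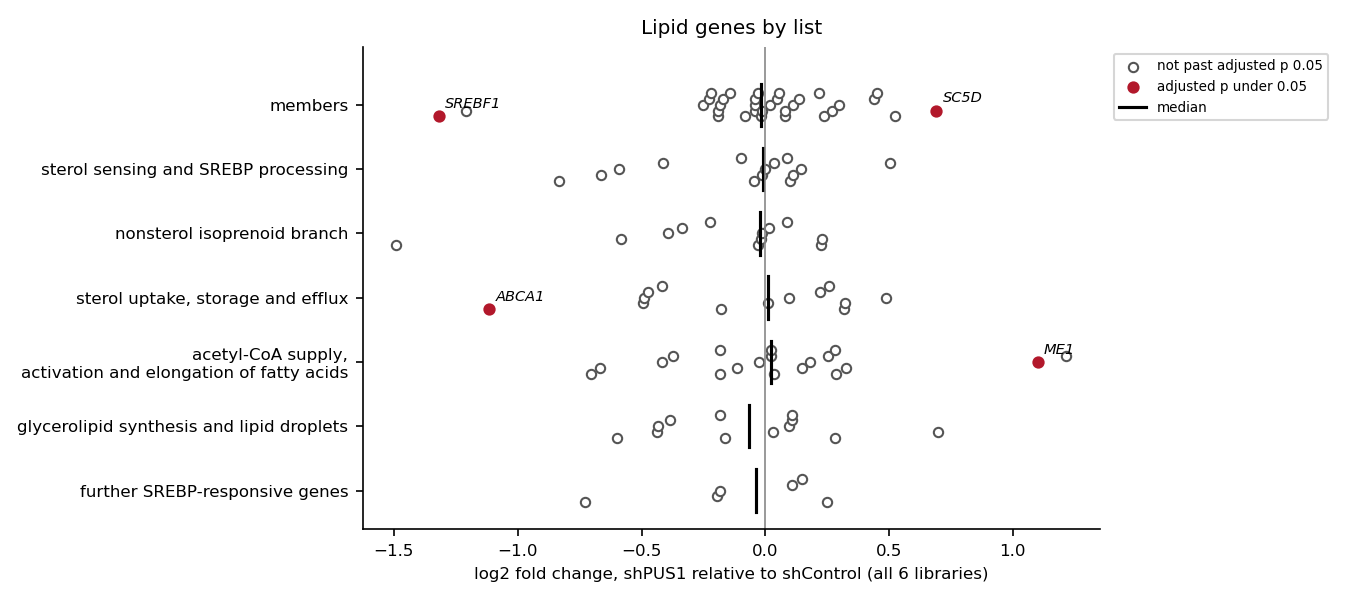
Log2 fold change (horizontal axis, all 6 libraries) of the 32 genes and of 6 further lists of lipid genes, 1 point per gene, with filled points for an adjusted p under 0.05 and a bar at the median. The medians lie between -0.06 and 0.02, and the filled points are SREBF1, SC5D, ABCA1 and ME1.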

How the data were processed

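Poly(A)-selected RNA of MDA-MB-231 cells (3 shControl and 3 shPUS1 libraries) was sequenced by the authors, aligned with HISAT2 and counted with HTSeq 0.6.1, as the methods and the submitters' processing notes give it. The genome build, annotation release, strandedness and handling of multiply mapped reads are not given in the sources used here. The authors deposited estimated counts for each gene without normalization, and between 29.8% and 31.8% of those above 0 in a library are not whole numbers. How the fractions arose is not given in the sources used here, so whether these counts are the direct output of HTSeq is not known. The authors also deposited FPKM, computed from these counts by exonic length and library total. Every column of values per library was used. Of the 32 genes, 9 have an annotated span that overlaps that of an expressed gene on the other strand. Where exons overlap, reads cannot be told apart without strand, and the overlap of exons was not examined.

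Estimated counts were rounded, filtered with filterByExpr, scaled by TMM (factors 0.973 to 1.032) and compared by the quasi-likelihood test (edgeR 4.0.16, R 4.3.3) over 14748 genes. The study names DESeq2 for this step. Here DESeq2 1.42.0 and limma 3.58.1 (log2 of FPKM plus 1 or 0.1, mean FPKM not under 1) were alternatives, with other scalings, no filter, a replicate block, each library left out in turn and a log2 threshold of 1. DESeq2 without shControl replicate 2 was added after the data had been seen. P-values were adjusted over all genes tested by the Benjamini-Hochberg method, and calls had an adjusted p under 0.05. SE values are on the log2 scale. Those of edgeR were derived as the absolute log2 fold change divided by the square root of the quasi-likelihood F statistic. The edgeR fit was also run on simulated counts, drawn with the same dispersion for every gene and with no library set apart. Because the data differ in both respects, that run cannot bear on the calls made here. Tables and plots were made with numpy 2.4.6, pandas 2.3.3, scipy 1.17.1 and matplotlib 3.10.9 in Python 3.11.15.

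The 32 genes and the further lists were chosen with earlier results of these data known. Every one of the 32 genes was to be reported. Values per library were to be given for genes past the threshold with all libraries or without shControl replicate 2, for genes with separated groups that changed by 0.5 or more on the log2 scale, and for the gene with the highest level of each role. For each further list, the counts and the 3 genes with the smallest unadjusted p were to be named. Values per library of SREBF2, HMGCS1 and STARD4 were added after they had been seen. Coordinates of genes follow the deposited table. All 32 genes overlap their position in GENCODE 29 (GRCh38), 13 with the same start and end. Library totals of 14241505 to 19625998 set the counting error, which is only part of the error between libraries.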

Additional observations from a re-analysis of the deposited data

How the results depend on the processing

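Over the 32 genes and 14 alternatives, 389 of 448 log2 fold changes kept their direction and their side of the threshold, 13 no longer passed it, 12 newly passed it and 34 changed sign, the last in 16 genes. The count of genes higher in shPUS1, 1 in the comparison as reported, was 0 with library totals, with limma at a pseudocount of 0.1, with the replicate block and with a log2 threshold of 1, where 2, 2, 3 and 2 genes had an unadjusted p under 0.05 and a positive value; DESeq2 on 6 libraries called 1. It was 2 with DESeq2 without shControl replicate 2, and it ranged from 0 to 2 with 1 library left out. The count of genes lower, 1 as reported, was 2 with no filter on low counts and with DESeq2, 5 with DESeq2 without shControl replicate 2, and 0 with the replicate block (2 at an unadjusted p under 0.05), and it ranged from 0 to 5 with 1 library left out. In the fits without shControl replicate 1 or any shPUS1 library, edgeR called between 0 and 11 genes of all those tested, with 2112 to 3750 at an unadjusted p under 0.05; DESeq2 was not run on them. The log2 fold change of PUS1 was -1.001 (adjusted p = 0.0544) and -1.48 (adjusted p = 0.0514) with limma at pseudocounts of 1 and 0.1, and it ranged from -1.86 to -1.20 with 1 library left out.

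Equal replicate numbers gave no sign of paired libraries. The correlations of their deviations from the group means were -0.05, -0.03 and -0.19 for numbers 1, 2 and 3, and unequal numbers gave -0.1 to 0.14. Deviations from a mean of 3 libraries depend on each other, so these correlations cannot exclude pairing. With the replicate block, 18 genes were called in all, against 380 without it, and the values were -1.55 for PUS1 (adjusted p = 0.0969), -1.30 for SREBF1 (adjusted p = 0.0693), 0.70 for SC5D (adjusted p = 0.141) and 0.012 for MVD.

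With library totals LSS was at -0.001. With DESeq2 without shControl replicate 2, values of the other sign were 0.21 for ACAT2, -0.061 for IDI1, -0.33 for MSMO1, 0.031 for NSDHL, -0.092 for STARD4, -0.27 for NPC1 and 0.014 for ELOVL6. With 1 library left out, ranges that crossed 0 were -0.60 to 0.18 for INSIG2, -0.19 to 0.19 for ACAT2, -0.21 to 0.16 for MVD, -0.079 to 0.24 for IDI1, -0.11 to 0.052 for FDPS, -0.074 to 0.094 for LSS, -0.30 to 0.004 for TM7SF2, -0.35 to 0.47 for MSMO1, -0.16 to 0.053 for NSDHL, -0.11 to 0.42 for STARD4, -0.28 to 0.46 for NPC1, -0.019 to 0.11 for ACLY, -0.21 to 0.039 for ACACA, -0.16 to 0.15 for FASN and -0.62 to 0.097 for SCD. Their cause was not tested. PMVK, with as few as 68 estimated counts in a library, and TM7SF2, with as few as 70, are the genes whose depth limits precision most.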

Other observations

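Over all genes tested, 25.5% had an unadjusted p under 0.05 with all libraries, DESeq2 called 7.37% higher and 5.64% lower, and edgeR without shControl replicate 2 called 9.80% higher and 8.79% lower; the counts of the following lists stand beside these shares. Of 12 genes of glycerolipid synthesis and lipid droplets, none passed the threshold with all libraries in edgeR, 4 had an unadjusted p under 0.05 (33.3%), and DESeq2 called 1 higher and 1 lower. GPAM, the acyltransferase that starts glycerolipid synthesis, had 23.2, 28.7 and 23.0 CPM in the controls and 16.7, 15.5 and 17.2 CPM in shPUS1 cells, with separated groups (log2 fold change -0.60, SE 0.15, adjusted p = 0.0736). The phosphatidate phosphatase LPIN2 had 253, 154 and 273 CPM in the controls and 377, 400.4 and 326 CPM in shPUS1 cells, above all controls (0.70, SE 0.21, adjusted p = 0.105). For AGPAT1, the next acyltransferase after GPAM, the log2 value was -0.38 (SE 0.13, adjusted p = 0.125). Without shControl replicate 2, 1 gene of this list rose (8.33%), LPIN2 (0.48, adjusted p = 0.0203), and 2 fell (16.7%), GPAM (-0.49, adjusted p = 0.0175) and the lipid droplet protein PLIN2 (-0.55, adjusted p = 0.0120).

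Of 12 genes of the nonsterol isoprenoid branch, none passed the threshold with all libraries in edgeR, 2 had an unadjusted p under 0.05 (16.7%), and DESeq2 called 1 lower. When shControl replicate 2 was left out, 1 rose (8.33%), the methyltransferase ICMT (0.36, adjusted p = 0.0415), and 1 fell (8.33%), FNTB (-0.54, adjusted p = 0.0123). FNTB, the beta subunit of protein farnesyltransferase, had 20.4, 22.9 and 21.4 CPM in the controls and 14.2, 14.2 and 14.8 CPM in shPUS1 cells (log2 fold change -0.58, adjusted p = 0.0653); it shares 37.9% of its 100-base stretches with the read-through gene CHURC1-FNTB, so its counts are uncertain. PDSS1, a prenyl diphosphate synthase for coenzyme Q, had 24.2 CPM in shControl replicate 2 and between 3.72 and 5.43 CPM in the other 5 libraries, and its log2 fold change was -1.49 with that library and -0.31 without it. The dehydrodolichyl diphosphate synthase subunit DHDDS was at 0.22 (adjusted p = 0.269). Of 6 further SREBP-responsive genes, none passed the threshold with all libraries in edgeR, 1 had an unadjusted p under 0.05 (16.7%) and DESeq2 called it lower: TMEM97, with 31.6, 53.3 and 31.1 CPM in the controls and 24.4, 22.3 and 23.4 CPM in shPUS1 cells (log2 fold change -0.73, adjusted p = 0.106, and -0.43, adjusted p = 0.0205, past the threshold without shControl replicate 2, its highest library). ACSS2 (-0.18) and ERG28 (-0.19) had overlapping groups.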
